A study of Mus musculus with 12 samples.

Results

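Tumors given the TGF-beta-neutralizing antibody 1D11 together with radiation were compared with control tumors across all genes of the array. The comparison held 6 of the study's 12 tumors, 3 in each group, chosen by their sample titles, and 12735 genes were tested. Every tumor was a subcutaneous graft of LLC, the Lewis lung carcinoma line that arose in a C57BL mouse, carried in the flank of female C57BL/6 mice of 6 to 8 weeks, hosts with an intact immune system. The combination group received 1D11 and 5 fractions of 6 Gy by the sample characteristics, although the sample descriptions give 2 Gy. Control tumors were not free of treatment: they received the antibody 13C4, known as the isotype control of 1D11, without radiation. The other 6 tumors, 3 with 1D11 alone and 3 with radiation under 13C4, entered the same fit and serve below for values side by side. All tumors were taken on day 19 after injection, so the values give 1 time point, and the labels do not say how long after the last fraction this was. Values are log2 array intensities of whole-tumor RNA, changes are log2 differences with the standard error (SE) of the fit, and n is 3 tumors per group. Nothing in the labels says more of the replicates than that they are separate samples, so p-values measure the spread between these samples.

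TGF-beta is secreted in a latent form that radiation is known to activate, and it signals through a pair of receptors to SMAD transcription factors. In tumors it acts on many cells at once: it holds back cytotoxic lymphocytes, shapes macrophages and neutrophils, and drives fibroblasts and the pericytes that wrap blood vessels. Radiation breaks DNA, which activates p53 in cells that carry it, and it damages the tumor's vessels. Because 1D11 binds the protein, the mRNA of the TGF-beta genes is no check of its action.

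LLC identity was checked first. The epithelial keratins Krt8 and Krt18 were bright in every tumor compared, with log2 intensities of 11.88, 11.95 and 12.08 for Krt8 in controls and 12.11, 12.64 and 12.28 in the combination group, and of 11.90, 11.90 and 12.07 and 12.15, 12.26 and 12.10 for Krt18. Epcam, an epithelial adhesion protein, read 7.20, 7.13 and 7.08 and 6.83, 7.32 and 7.28. Its other probe set had a mean of 5.01 over the 12 arrays, dimmer than the cut of 5.37 below which genes were left out. Of 14 lung and epithelial markers 6 were bright enough to test. Among the 8 below this filter were the lung identity factor Nkx2-1 and the differentiated lung markers Sftpc and Scgb1a1. The epithelial genes Krt7, Cdh1, Cldn4 and Cldn7 were below it as well. Each array thus reads the LLC cells and the host's stroma and leukocytes as 1 mixture, and fewer cells of a type cannot be told apart from less RNA per cell. Markers of neighbouring skeletal muscle differed between tumors of 1 group, with list scores of 1.05, -0.73 and -1.01 in the controls and -0.82, 0.40 and -1.17 in the combination group. A list score is the mean of the members' log2 values in a tumor, each centred over the 12 arrays.

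Genes of chemokines, macrophages and the p53 response were among those that rose under the combination, and genes of pericytes, endothelium and fibroblasts were among those that fell. At a Benjamini-Hochberg adjusted p under 0.05 in limma, 299 genes changed, 2.35% of those tested. Of these, 218 rose (1.71%) and 81 fell (0.636%), and 36 changed by more than 2-fold, 23 up and 13 down. The median change of all genes was near 0, with 6287 genes higher and 6448 lower. Under quantile normalization 217 genes were called and 52.5% of them were higher, against 72.9% as deposited, so the balance between rises and falls depends on the scaling. In 3396 genes (26.7%) the groups did not overlap, 1871 with every treated tumor above every control (14.7%) and 1525 below (12%). The number of calls depended on single tumors: it was 57, 78 and 17 without combination replicates 1, 2 and 3, and 181, 219 and 221 without control replicates 1, 2 and 3. In a fit of the 6 tumors alone 1 gene, Ccl3, was called, and 2362 genes had an unadjusted p under 0.05. Every one of the 299 genes kept its direction in each of these fits. They were picked for large changes in the same tumors, so this is no independent check. In the fit of 6 tumors alone the changes are the same by construction.

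**Figure D1:**
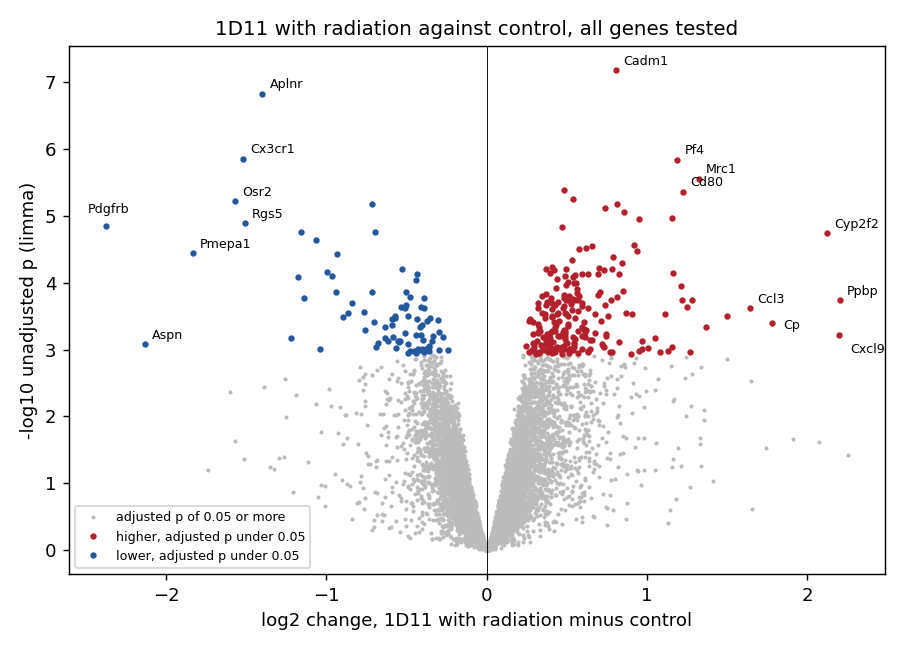
Log2 change of 1D11 with radiation over control (horizontal axis) against the −log10 unadjusted p from limma (vertical axis) for 12735 genes, 1 point per gene. The 218 called rises are red and the 81 called falls blue, and Cadm1 and Aplnr lie highest.

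In 15 genes the call held without any 1 of the 6 tumors, and 14 of these also held under every other alternative that tested them except the fit of 6 tumors. Cadm1, an adhesion molecule of epithelial and immune cells, had the smallest p. It read 8.62, 8.50 and 8.58 in the controls, 9.13, 9.12 and 9.12 with 1D11, 9.06, 9.14 and 9.0 with radiation and 9.45, 9.35 and 9.31 with both. All 6 singly treated tumors lay above the controls, and the 3 combination tumors lay above all others. The rise over control was 0.81 ± 0.06 (adjusted p = 0.000844), against 0.50 ± 0.06 for radiation and 0.56 ± 0.06 for 1D11, which share those controls. The other probe sets of Cadm1 gave 0.96, 0.79 and 0.18. Aplnr, the apelin receptor of sprouting endothelium, read 9.04, 8.68 and 8.96 in the controls and 7.31, 7.65 and 7.52 in the combination group. It fell by 1.40 ± 0.12 (adjusted p = 0.000954), and the combination tumors were the lowest of all 12. Its other probe set gave a change of -0.60, in the same direction.

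The remaining genes of this kind divide into myeloid and other groups. Pf4, a platelet chemokine that macrophages also make, rose by 1.19 ± 0.13, from 10.80 ± 0.10 to 11.99 ± 0.24 (mean ± SD, adjusted p = 0.00465). Mrc1, the mannose receptor of macrophages, rose by 1.32 ± 0.15 (adjusted p = 0.00717), from 11.05, 10.89 and 11.08 to 12.12, 12.61 and 12.26. Ccl6, a macrophage chemokine, rose by 0.86 ± 0.11 (adjusted p = 0.00853). Cd80, the costimulatory ligand that engages CD28, rose by 1.23 ± 0.15 (adjusted p = 0.00784), from 5.41, 5.29 and 5.39 to 6.35, 6.90 and 6.51. Its 3 dimmer probe sets gave 0.76, 0.22 and -0.12, so the size of its rise depends on the probe set. Cx3cr1, the fractalkine receptor of monocytes and resident macrophages, went the other way. It read 7.90, 8.34 and 7.70 in the controls and 6.46, 6.54 and 6.36 in the combination group and fell by 1.52 ± 0.16 (adjusted p = 0.00465), with the combination tumors below every other tumor. Its second probe set gave -0.47. Cyp2f2, a cytochrome P450 known from lung, rose by 2.12 ± 0.30 (adjusted p = 0.0111), from 4.53, 4.73 and 4.99 to 6.95, 7.47 and 6.19. All its controls lay below the filter cut of 5.37, and it was tested because its mean over all arrays was 5.62. The controls of Cd80 lay close to that cut. The sizes of the rises of Cyp2f2 and Cd80 thus rest on dim control values. Osr2, a mesenchymal transcription factor, fell by 1.57 ± 0.20, from 7.26 ± 0.15 to 5.70 ± 0.36, and its dimmer probe set gave -0.18. Gne, the entry enzyme of sialic acid synthesis, rose by 0.48 ± 0.06, and the membrane protein gene Prrg2 fell by 0.72 ± 0.09. Outside the rule for named genes, and chosen for holding in this way, were the leukocyte integrin gene Itgb7 (0.81 ± 0.10), the collagen processing gene Pcolce2 (0.74 ± 0.09) and Znrd1as (0.94 ± 0.14), which runs antisense to its neighbour. Bola3 (0.54 ± 0.07), likewise outside the rule, held without any 1 tumor but not in every other alternative.

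**Figure D2:**
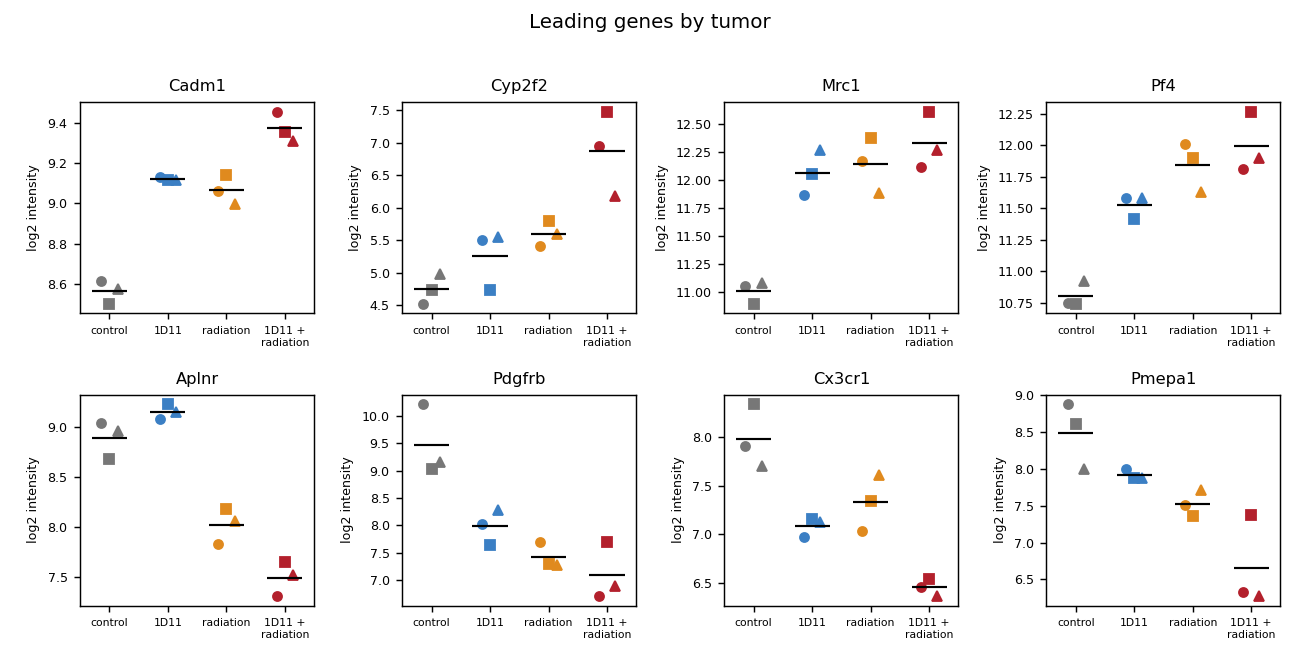
Log2 intensity of 8 leading genes (vertical axes) in the 4 groups, 1 point per tumor (circle, square and triangle for replicates 1, 2 and 3) with the group mean as a bar. In Cadm1, Aplnr and Cx3cr1 the 3 combination tumors lie beyond every other tumor, whereas in Mrc1 they overlap both singly treated groups.

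Chemokines that draw neutrophils were higher in the combination group. Ppbp, the platelet and myeloid CXC chemokine, was the largest rise of all called genes by a narrow margin over Cxcl9. It read 8.15, 8.27 and 7.96 in the controls, 8.75, 8.46 and 7.80 with 1D11, 9.55, 8.53 and 7.84 with radiation and 10.20, 10.94 and 9.83 with both, so every combination tumor lay above the other 9. The rise over control was 2.20 ± 0.40, or 4.6-fold (adjusted p = 0.0265). Against radiation alone the difference was 1.69 ± 0.40, with an unadjusted p of 0.00145 that did not pass adjustment (0.84). Against 1D11 alone it was 1.99 ± 0.40 (adjusted p = 0.0669). Its relatives are ligands of the neutrophil receptor CXCR2 and varied far more between control tumors. Cxcl2 read 8.64, 9.35 and 10.32 in the controls and 11.21, 11.30 and 11.03 in the combination group, a difference of 1.74 ± 0.70 (adjusted p = 0.184). Cxcl3 read 8.94, 7.95 and 9.39 and 10.77, 10.92 and 10.33, a difference of 1.91 ± 0.72 (adjusted p = 0.16). The groups did not overlap for either, yet neither passed. Cxcl5 gave 1.33 ± 0.49 (adjusted p = 0.157) and Cxcl1, whose groups overlapped, 0.87 ± 0.63 (adjusted p = 0.45). In the singly treated groups these values split: Cxcl2 read 11.13, 8.56 and 8.49 with 1D11 and 11.06, 10.13 and 9.04 with radiation, and replicate 1 was the highest of its group in both. The list holds these 5 chemokines and the receptor gene Cxcr2, which is also in the neutrophil list below. Of its 6 tested members all were higher, 1 passed and 5 did not overlap with controls (14.7% of all genes lay wholly above). The median change was 1.53 against 0.52 for radiation and -0.02 for 1D11. Without single tumors this median ran from 1.19 to 1.83.

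Ppbp, Cxcl3, Cxcl1 and Cxcl2 lie near one another on chromosome 5. The sequences before their starts are shown here because Ppbp alone of these 4 genes passed the test. Passing reflects spread as well as size: Cxcl3 and Cxcl2 were higher by 1.91 and 1.74, beside 2.20 for Ppbp, with larger SEs. Cxcl5 and Pf4, a chemokine gene that also passed, are not shown. The lines give the 150 bases before the annotated start in RefSeq (build GRCm38.p6), plus strand and 5′ to 3′, for Ppbp at chr5:90768368-90768517, Cxcl3 at chr5:90785951-90786100, Cxcl1 at chr5:90891095-90891244 and Cxcl2 at chr5:90903749-90903898. Capitals mark matches to GGNNTTTCC, a core form of the NF-kB motif (N is any base), on either strand.
Ppbp: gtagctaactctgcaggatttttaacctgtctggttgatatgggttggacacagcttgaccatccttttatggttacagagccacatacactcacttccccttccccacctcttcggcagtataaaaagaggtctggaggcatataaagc
Cxcl3: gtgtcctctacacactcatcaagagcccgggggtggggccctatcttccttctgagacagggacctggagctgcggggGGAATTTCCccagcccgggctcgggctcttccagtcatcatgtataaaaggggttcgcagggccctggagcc
Cxcl1: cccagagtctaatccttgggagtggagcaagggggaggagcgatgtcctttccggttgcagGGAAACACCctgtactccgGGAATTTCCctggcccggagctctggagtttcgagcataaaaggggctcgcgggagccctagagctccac
Cxcl2: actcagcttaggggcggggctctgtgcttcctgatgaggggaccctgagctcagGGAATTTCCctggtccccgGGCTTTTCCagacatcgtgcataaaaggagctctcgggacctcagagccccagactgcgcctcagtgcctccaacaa
Cxcl3 holds 1 match, and Cxcl1 and Cxcl2 hold 2 each, while the Ppbp window holds none. A match is held by 1027 of the 32851 RefSeq windows of this length, or 3.13%. The motif was picked after these sequences were seen, and a match is a description of the letters and not of binding. Whether matches go with passing or not passing was not tested.

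**Figure D3:**
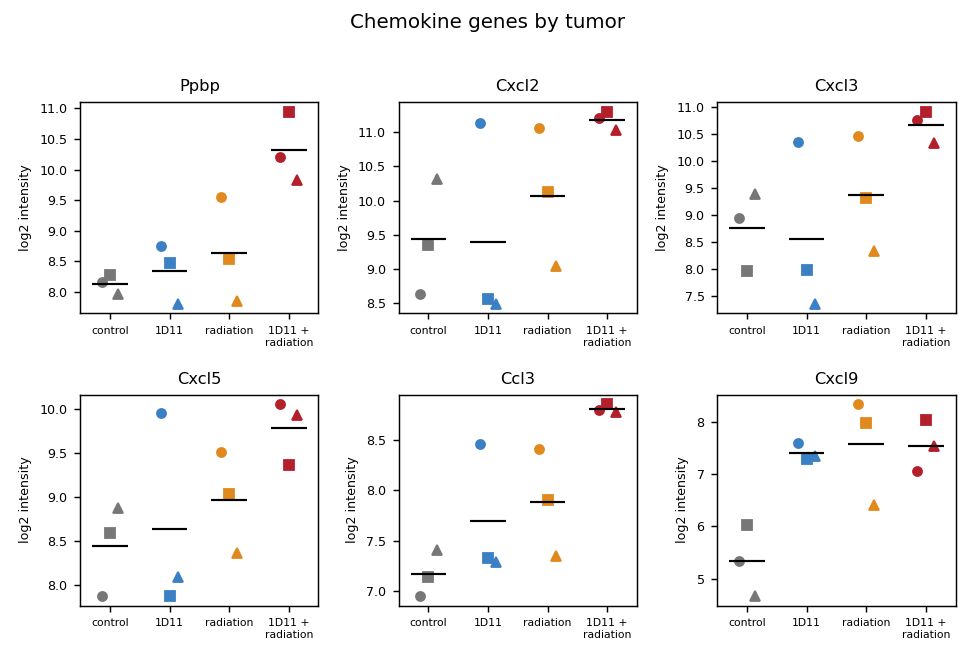
Log2 intensity of 6 chemokine genes (vertical axes) in the 4 groups, 1 point per tumor (circle, square and triangle for replicates 1, 2 and 3) with the group mean as a bar. The 3 combination tumors lie above all 3 controls in each panel, and replicate 1 is the highest 1D11 tumor in all 6.

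Neutrophil genes themselves did not pass the test. Of 12 tested, 10 were higher, 7 lay wholly above the controls (14.7% of all genes did) and none was called. The median change was 0.52, against 0.01 for radiation and 0.17 for 1D11. S100a9, a calprotectin subunit, read 9.42, 10.13 and 10.15 in the controls and 11.29, 10.99 and 10.91 in the combination group (1.16 ± 0.51, adjusted p = 0.219). Cxcr2, the receptor of these chemokines, gave 0.55 ± 0.18 (adjusted p = 0.108), Fpr2, a formyl peptide receptor, 0.92 ± 0.22 (0.0565), and Csf3r, the receptor of G-CSF, 0.49 ± 0.14 (0.081). The list scores were -0.06, -0.25 and -0.26 in the controls and 0.36, 0.35 and 0.30 in the combination group. Of 14 inflammatory cytokines 12 were higher and 1 rose. Csf2, which encodes GM-CSF, rose by 0.54 ± 0.12 (adjusted p = 0.0483), from 5.49, 5.27 and 5.50 to 6.22, 5.88 and 5.78. Il1b, the cytokine of activated myeloid cells, read 8.43, 9.35 and 9.83 and 10.49, 10.06 and 10.54, a difference of 1.16 ± 0.54 that did not pass (adjusted p = 0.249). Tlr2, a receptor for bacterial lipoproteins, fell by 0.62 ± 0.13 (adjusted p = 0.0443). It read 8.37, 7.92 and 7.71 in the controls, 8.00, 8.07 and 8.04 with 1D11, 8.03, 7.94 and 8.02 with radiation and 7.51, 7.35 and 7.29 with both, so the 3 combination tumors were the lowest of all 12. The calls of Ppbp, Csf2 and Tlr2 were lost without at least 1 of the 6 tumors, at adjusted p up to 0.0774, 0.114 and 0.134.

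CC chemokines of monocytes rose in part. The median of 13 tested was 0.40, against 0.36 for radiation and 0.46 for 1D11. Of these 10 were higher and 3 rose, Ccl3, Ccl12 and Ccl6. Without combination replicate 3 only 1 of them was called. Ccl3, a chemokine of activated macrophages, read 6.95, 7.15 and 7.41 in the controls and 8.79, 8.85 and 8.78 in the combination group, where the 3 tumors lay close together. It rose by 1.64 ± 0.31 (adjusted p = 0.0278). The call was lost without control replicate 1 or 2 or without any 1 combination tumor, at adjusted p up to 0.0916 in limma. Ccl12, a ligand of the monocyte receptor CCR2, rose by 1.16 ± 0.15 (adjusted p = 0.00946), from 9.49 ± 0.23 to 10.65 ± 0.14. Ccl8 (1.65 ± 0.43, adjusted p = 0.0695) and the T cell chemokine Ccl5 (0.99 ± 0.24, adjusted p = 0.0595) did not pass.

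The macrophage list as a whole did not move 1 way. Of 27 genes tested 19 were higher and 8 lower, 2 rose and 1 fell, and the median was 0.06 against 0.32 for radiation and 0.30 for 1D11. The sign of that median rested on single tumors: it was -0.06 without combination replicate 2 and 0.23 without combination replicate 1. Beside Mrc1 the rise was Fcgr4, an activating IgG receptor, with 1.01 ± 0.23 (adjusted p = 0.0481), from 6.88, 7.57 and 7.05 to 7.88, 8.31 and 8.33. Fcgr1 (0.50 ± 0.13, adjusted p = 0.0712) and the integrin gene Itgam (0.51 ± 0.13, adjusted p = 0.0648) did not pass. Npl, an enzyme of sialic acid breakdown, rose by 1.28 ± 0.23 (adjusted p = 0.0265). It read 8.41, 7.70 and 8.28 in the controls, 9.23, 9.43 and 9.81 with 1D11, 9.37, 9.64 and 8.83 with radiation and 9.20, 9.54 and 9.50 with both, so the 3 treated groups overlapped one another and none overlapped the controls. Erc2, which encodes a scaffold protein of nerve terminals, rose by 1.25 ± 0.23 (adjusted p = 0.0278).

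Of 3 tested granzyme genes in the cytotoxic lymphocyte list, Gzmb and Gzma rose. Gzmb, a protease of cytotoxic granules, read 6.17, 6.57 and 6.35 in the controls and 7.26, 8.20 and 7.28 in the combination group, a rise of 1.22 ± 0.22 (adjusted p = 0.0265). Gzma read 5.53, 6.08 and 5.52 and 6.59, 7.56 and 6.37, a rise of 1.13 ± 0.26 (adjusted p = 0.0483). Gzmc, whose groups overlapped, gave 0.79 ± 0.65 and did not pass (adjusted p = 0.513). Klrd1, a natural killer receptor chain, gave 1.15 ± 0.28 and did not pass (adjusted p = 0.0574). Of 19 list members 10 were bright enough to test. Of these 8 were higher, 2 rose and 5 lay wholly above the controls (14.7% of all genes did). The median was 0.64, against 0.46 for radiation, where 4 were called higher, and 0.29 for 1D11. The combination median fell to 0.27 without combination replicate 2, the tumor with the highest list score (0.07, 0.64 and -0.10 in the 3 tumors). It reached 0.86 at most. Without single tumors 0 to 2 of these genes were called. Ms4a4b, a membrane protein of T cells, rose by 1.27 ± 0.29 (adjusted p = 0.0485), and its other probe set gave -0.0051. Stat4, a factor downstream of interleukin-12, rose by 0.39 ± 0.08 (adjusted p = 0.0414). It read 5.71, 5.64 and 5.58 in the controls and 5.98, 6.13 and 5.99 in the combination group. It was the only called gene of 9 tested in the T cell list, and with any 1 of the 6 tumors left out none of the 9 was called. The list median was 0.07, against 0.26 for radiation, where 2 were called higher, and 0.05 for 1D11.

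Interferon response genes were not raised as a list, and Cxcl9 stood alone. Cxcl9, an interferon-gamma-induced chemokine for T cells, read 5.33, 6.04 and 4.67 in the controls and 7.07, 8.03 and 7.53 in the combination group, a rise of 2.20 ± 0.47 or 4.59-fold (adjusted p = 0.0411). Control replicates 1 and 3 of Cxcl9 lay below the filter cut of 5.37, so the size of its rise rests on dim control values. The same gene read 7.59, 7.30 and 7.35 with 1D11 and 8.34, 7.99 and 6.41 with radiation, and all 9 treated tumors lay above the 3 controls. Of 31 interferon response genes tested 11 were higher and 20 lower, 1 rose, and the median was -0.06, against 0.31 for radiation and 0.60 for 1D11. The sign rested on single controls, since leaving out replicate 3 of them gave -0.23 and leaving out replicate 2 gave 0.13. The list scores were -0.25, 0.12 and -0.51 in the controls, 0.21, 0.48 and 0.27 with 1D11, 0.02, 0.15 and 0.13 with radiation and -0.23, -0.12 and -0.26 with both. Each combination tumor thus lay below each singly treated tumor, while the spread of the controls covered all 3 combination tumors. No member was called between the combination and either single treatment. Of 8 MHC class II genes 7 were higher and none passed. Their median was 0.46, against 0.81 for radiation, where 1 was called higher, and 0.56 for 1D11. H2-Aa, a class II chain, read 10.02, 9.85 and 9.40 in the controls and 10.22, 10.94 and 10.34 in the combination group (0.74 ± 0.28, adjusted p = 0.166). Cd83, a marker of mature dendritic cells, gave 0.45 ± 0.17 (adjusted p = 0.157). Cd274, which encodes PD-L1, read 6.66, 7.28 and 6.74 and 7.63, 7.61 and 7.72, a difference of 0.76 ± 0.18 that did not pass (adjusted p = 0.0564).

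**Figure D4:**
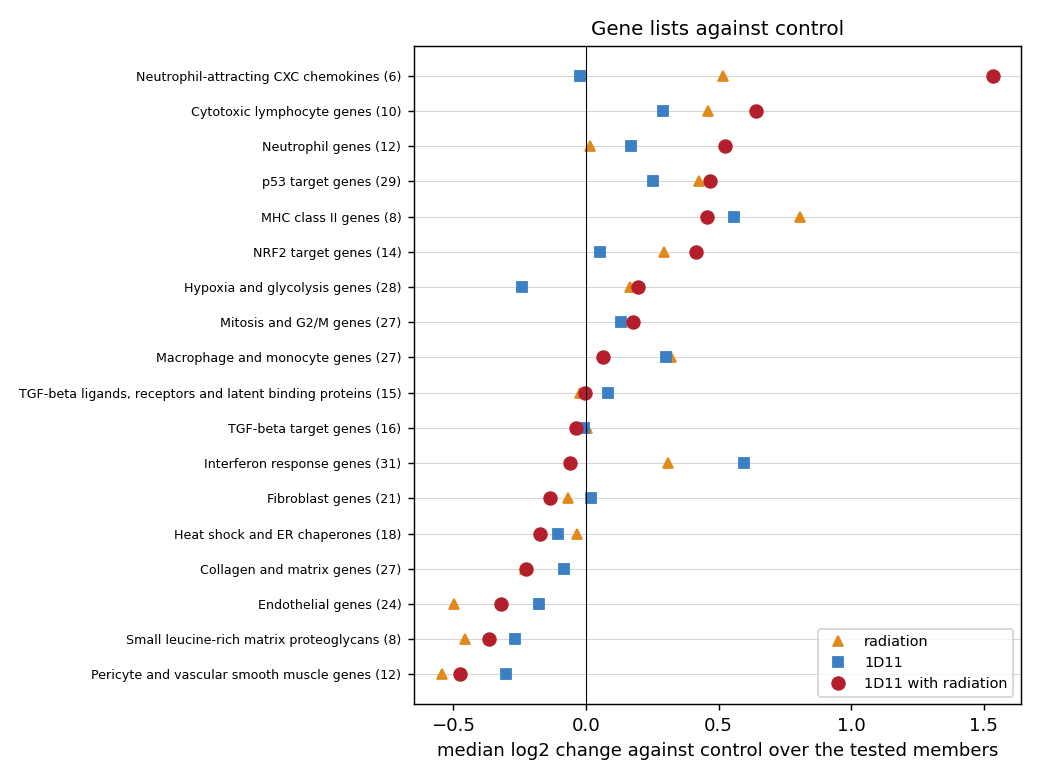
Median log2 change against control (horizontal axis) over the tested members of 18 gene lists (number of members in brackets) for 1D11 with radiation (circles), radiation (triangles) and 1D11 (squares), which share the 3 control tumors. The combination has the highest median of the 3 for the CXC chemokine list, which includes the receptor gene Cxcr2 (1.53). It has the lowest for interferon response genes (-0.06, from -0.23 to 0.13 without single tumors).

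Pericyte genes were lower throughout. All 12 tested members were lower in the combination group, 3 fell and 7 did not overlap with controls (12% of all genes lay wholly below). The median was -0.48, against -0.54 for radiation, where 4 were called lower, and -0.30 for 1D11. Pdgfrb, the receptor through which pericytes and fibroblasts answer PDGF-B, was the largest fall of all called genes. It read 10.22, 9.03 and 9.15 in the controls and 6.70, 7.69 and 6.89 in the combination group and fell by 2.37 ± 0.32 (adjusted p = 0.0104). It read 8.01, 7.65 and 8.27 with 1D11 and 7.69, 7.30 and 7.26 with radiation, so all treated tumors lay below the controls. Its dimmer probe set gave -0.99. Rgs5, a G-protein regulator of pericytes, fell by 1.51 ± 0.20 (adjusted p = 0.0103), from 9.37, 9.46 and 9.37 to 7.71, 8.39 and 7.56. Cspg4, the pericyte proteoglycan NG2, fell by 0.49 ± 0.10 (adjusted p = 0.0307). Mcam (-0.51 ± 0.15, adjusted p = 0.0855) and the potassium channel subunit Abcc9 (-0.97 ± 0.29, adjusted p = 0.0961) did not pass. Without combination replicate 3 none of these genes was called, without any other of the 6 tumors 2 or 3 were. The adjusted p of Pdgfrb and Rgs5 reached 0.0501 at most, and the median ran from -0.54 to -0.44.

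Endothelial genes were lower in 23 of 24, of which 2 fell and 5 did not overlap with controls (12% of all genes lay wholly below). The median was -0.32, against -0.50 for radiation, where 7 were called lower, and -0.18 for 1D11. Beside Aplnr the fall was Tek, the angiopoietin receptor, from 5.87, 5.94 and 5.95 to 5.01, 5.28 and 5.32 (-0.72 ± 0.13, adjusted p = 0.0265). Sox18 (-0.49 ± 0.14, adjusted p = 0.085), Ecscr (-0.45 ± 0.11, 0.0621) and the junction protein gene Esam (-0.43 ± 0.13, 0.0847) did not pass. Control replicate 1 differed from the other controls here, with list scores of -0.14, 0.44 and 0.52 in the 3 controls and -0.13, 0.01 and -0.13 in the combination group. Without it 9 endothelial genes were called and the median was -0.46. Without control replicate 3 the median was -0.19, and without any 1 of the combination tumors 1 gene was called. Control replicate 1 also had the highest muscle score of the 6. With radiation alone 5 of 22 angiogenic ligands and receptors were called lower than in controls. Under the combination 4 of the 22 fell and 1 rose. The fallen were Pdgfrb, Tek, Aplnr and Pdgfra, while Met, the receptor of hepatocyte growth factor, rose by 0.35 ± 0.07 (adjusted p = 0.0415). Pdgfra, the PDGF receptor of fibroblasts, fell by 0.93 ± 0.14 (adjusted p = 0.0166), and its dimmer probe sets gave -0.22 and -0.27. Efna1, an ephrin of endothelium, read 7.84, 7.65 and 8.19 in the controls and 6.96, 7.02 and 6.88 in the combination group and fell by 0.94 ± 0.17 (adjusted p = 0.0265). Plxnd1, a semaphorin receptor of vessels (-0.42 ± 0.10, adjusted p = 0.0483), and Ntn1, a netrin (-0.33 ± 0.07, adjusted p = 0.0411), fell as well, and with Efna1 they were the 3 called of 24 axon guidance genes. Without single tumors 0 to 3 of these were called lower, and 1 to 5 of the angiogenic genes. Sparcl1, a matricellular protein of vessel walls, fell by 1.07 ± 0.15 (adjusted p = 0.0135), from 8.57 ± 0.23 to 7.50 ± 0.28.

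Fibroblast and matrix genes were lower with a wider spread. Of 21 fibroblast genes 15 were lower and 3 fell, Pdgfrb, Pdgfra and Osr2. The median was -0.14, against -0.07 for radiation, where 3 were called lower, and 0.02 for 1D11. Of 27 collagen and matrix genes 22 were lower and 1 fell. Their median was -0.22, against -0.23 for radiation and -0.08 for 1D11. The fallen gene was Col15a1, a basement membrane collagen, with -0.59 ± 0.12 (adjusted p = 0.0319). Aspn, a small matrix proteoglycan, read 9.91, 8.57 and 8.33 in the controls and 6.53, 7.73 and 6.15 in the combination group and fell by 2.14 ± 0.47 (adjusted p = 0.0457). Combination replicate 2 stood apart from its group in these genes. The collagen scores were -0.35, 0.32 and -0.49 in the 3 combination tumors against 0.22, 0.15 and 0.03 in the controls, and the fibroblast scores were -0.34, 0.30 and -0.48. Col14a1 read 7.56, 7.54 and 7.27 and 5.69, 6.80 and 5.07 and did not pass (-1.60 ± 0.45, adjusted p = 0.0791), nor did Col6a2 (-1.19 ± 0.34, adjusted p = 0.0821). Without replicate 2 the collagen median was -0.39 and the fibroblast median -0.28, and without combination replicate 3 they were -0.12 and -0.012. Without single tumors 0 to 2 collagen genes and 1 to 3 fibroblast genes were called lower. Combination replicate 2 had the highest muscle score of its group, and the part of adjacent tissue in these values was not tested.

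The TGF-beta pathway itself showed few changes in mRNA. Of 15 ligand, receptor and latency genes 7 were higher and 8 lower, none passed and the median was near 0. Tgfb1 read 6.86, 7.19 and 6.97 in the controls and 7.22, 7.14 and 7.18 in the combination group (0.17 ± 0.11, adjusted p = 0.404). Tgfb3 read 9.24, 8.97 and 8.62 and 8.26, 8.01 and 8.18, which did not overlap, with -0.79 ± 0.19 (adjusted p = 0.0579). Tgfb2 (-0.56 ± 0.22), Tgfbr1 (-0.24 ± 0.12) and Tgfbr2 (0.10 ± 0.10) did not pass, and the sign of Tgfbr2 turned without combination replicate 2. Leaving out combination replicate 3 gave the ligand, receptor and latency genes a median of 0.10. Downstream, 2 of 16 SMAD, feedback and Id genes fell, and 0 to 2 did without single tumors. Pmepa1, a TGF-beta-induced inhibitor of SMAD signalling, read 8.88, 8.61 and 7.99 in the controls, 8.01, 7.88 and 7.87 with 1D11, 7.50, 7.36 and 7.72 with radiation and 6.33, 7.37 and 6.27 with both. It fell by 1.84 ± 0.28 (adjusted p = 0.0164), against -0.97 ± 0.28 for radiation (0.0923) and -0.57 ± 0.28 for 1D11 (0.38), neither of which passed. The difference from radiation alone was -0.87 ± 0.28 (unadjusted p = 0.00936, adjusted 0.84). Combination replicates 1 and 3 were the lowest of all 12 tumors, and replicate 2 lay within the radiation range. Id3, an inhibitor of differentiation factors and a BMP target, fell by 0.84 ± 0.15 (adjusted p = 0.0271), from 10.11 ± 0.11 to 9.27 ± 0.26. Smad7, the inhibitory SMAD, gave -0.13 ± 0.10 (adjusted p = 0.462), and Smad5 -0.38 ± 0.10 (adjusted p = 0.0735). Of 16 TGF-beta target genes 1 fell, Igfbp7 (-0.76 ± 0.16, adjusted p = 0.0392), a binding protein rich in vessel walls, and its dimmer probe sets gave -0.47 and 0.01. Tgfbi, named for its induction by TGF-beta, gave -0.50 ± 0.18 (adjusted p = 0.15).

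Genes that p53 induces were higher. Of 29 tested 24 were higher, 5 rose and 20 lay wholly above the controls (14.7% of all genes did). The median was 0.47, against 0.43 for radiation and 0.25 for 1D11. The called members were Cd80, Ephx1, Dglucy, Mdm2 and Aen, where 1.71% of all genes were called higher. The list was chosen with earlier results of these data known, so its count of calls is no independent check. Mdm2, the ubiquitin ligase that degrades p53, read 9.94, 10.41 and 10.47 in the controls and 10.92, 10.80 and 10.89 in the combination group, a rise of 0.60 ± 0.12 (adjusted p = 0.0363). Ephx1, an epoxide hydrolase, rose by 1.37 ± 0.28 (adjusted p = 0.0364), Dglucy by 0.78 ± 0.14 (0.0265) and the nuclease gene Aen by 0.40 ± 0.08 (0.0307). Cdkn1a, which encodes the cell cycle inhibitor p21, read 10.88, 12.11 and 12.28 and 12.52, 12.51 and 12.51. Its treated tumors were nearly equal, but control replicate 1 lay far below the other controls, and the difference of 0.76 ± 0.27 did not pass (adjusted p = 0.144). Pmaip1, the death-promoting BH3 protein Noxa, read 6.75, 8.28 and 8.22 and 8.87, 9.63 and 9.25 (1.50 ± 0.35, adjusted p = 0.0532). Without any combination tumor 1 member was called, and without control replicates 1, 2 and 3 the number was 4, 5 and 10. Leaving out single tumors moved the median between 0.31 and 0.52. The scores were -0.59, -0.19 and -0.08 in the controls and 0.10, 0.25 and 0.15 in the combination group. Of 27 mitosis genes 24 were higher and 1 rose, the cyclin gene Ccnb2 (0.43 ± 0.07, adjusted p = 0.0254). Only 2 lay wholly above the controls (14.7% of all genes did), and without single tumors the mitosis median ran from 0.05 to 0.32. Of 26 replication genes 7 were higher and 1 rose, the thymidine kinase gene Tk1 (0.42 ± 0.09, adjusted p = 0.0394). In that list 5 lay wholly below the controls (12% of all genes did) and 1 above (14.7% did). The calls of Ccnb2 and Tk1 were lost when any 1 of the combination tumors was left out.

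**Figure D5:**
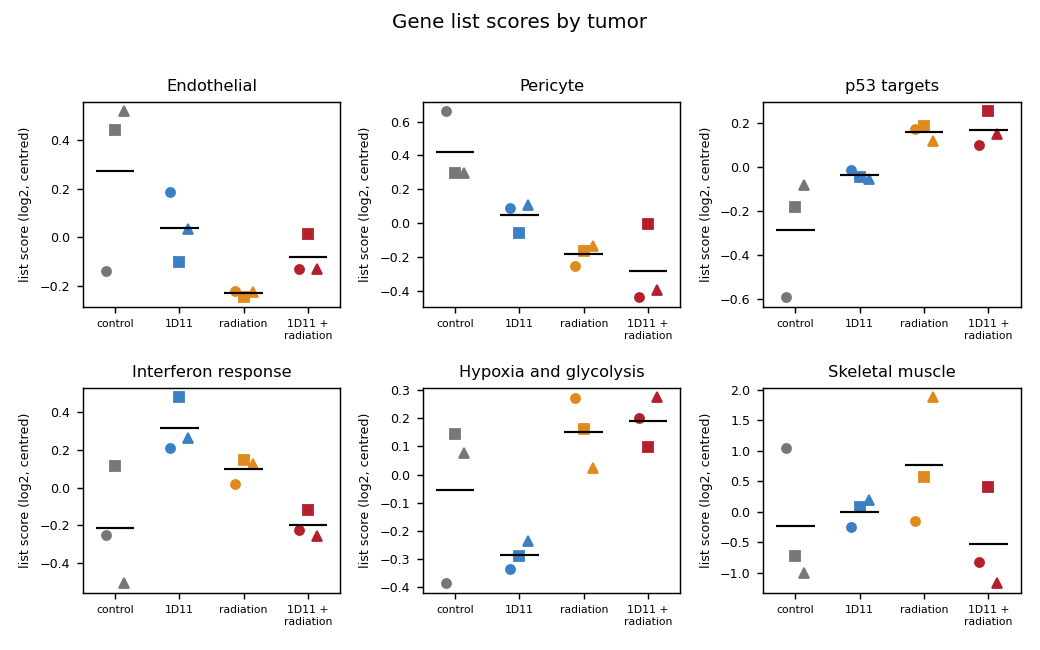
Scores of 6 gene lists (mean centred log2 value of the members, vertical axes) in the 4 groups, 1 point per tumor (circle, square and triangle for replicates 1, 2 and 3) with the group mean as a bar. Combination tumors lie above all controls for p53 targets and below all controls for pericyte genes, and control replicate 1 stands apart in the endothelial, p53, hypoxia and muscle panels.

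Antioxidant and metabolic genes were also higher. Of 14 NRF2 targets 12 were higher, 2 rose and 8 lay wholly above the controls (14.7% of all genes did), with a median of 0.41. Without single tumors 0 to 2 of them were called. Gclc, the catalytic subunit that starts glutathione synthesis, rose by 0.52 ± 0.10 (adjusted p = 0.0277), from 9.18, 8.96 and 9.10 to 9.46, 9.76 and 9.59. Abcc1, an exporter of glutathione conjugates, rose by 0.57 ± 0.09 (adjusted p = 0.0152), from 11.12, 11.16 and 11.19 to 11.80, 11.68 and 11.71, and Gclm, the partner of Gclc, gave 0.43 ± 0.10 (adjusted p = 0.0574). Of 28 hypoxia and glycolysis genes 25 were higher, none passed and the median was 0.20, against 0.16 for radiation and -0.24 for 1D11. Leaving out control replicate 1 gave a median of 0.11, and leaving out control replicate 2 gave 0.29. Pgk1 (0.30 ± 0.08, adjusted p = 0.0676), Ldha (0.20 ± 0.06, 0.0856) and Ero1a (0.63 ± 0.22, 0.139) are examples. All 18 heat shock and ER chaperone genes were lower, none passed and the median was -0.17. Cp, the copper ferroxidase ceruloplasmin, rose by 1.78 ± 0.36 (adjusted p = 0.034). It read 7.92, 9.33 and 9.48 in the controls and 10.62, 11.08 and 10.37 in the combination group, and control replicate 1 was the lowest of the 12 tumors. Hoatz, a gene of ciliated cells, rose by 1.50 ± 0.29 (adjusted p = 0.0307). The remaining large falls were Lhx9, a developmental transcription factor (-1.22 ± 0.26), Lgalsl, a galectin-like gene (-1.17 ± 0.19), the phosphatase gene Ppm1e (-1.14 ± 0.21) and 2900009J06Rik (-1.16 ± 0.16), at adjusted p from 0.011 to 0.0415.

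The direct tests against each single treatment were far sparser than the test against control. Against radiation alone no gene passed in limma, with 688 at an unadjusted p under 0.05 and a smallest adjusted p of 0.84. Of the 299 genes called against control 51 had an unadjusted p under 0.05 there. Cx3cr1 differed from radiation by -0.87 ± 0.16 (unadjusted p = 0.000235), Mpdz, a junction scaffold, by 0.51 ± 0.10 (0.000416), Cadm1 by 0.31 ± 0.06 (0.00058) and Tlr2 by -0.62 ± 0.13 (0.000742). Nmnat3, an enzyme of NAD synthesis, read 7.86, 7.81 and 7.85 in the controls, 7.99, 8.03 and 8.01 with radiation and 8.20, 8.48 and 8.32 with both, a difference from radiation of 0.33 ± 0.08. Ms4a4b and Stat4 were lower in the combination than with radiation, with differences of -1.07 ± 0.29 and -0.36 ± 0.08 (unadjusted p = 0.00337 and 0.00106). An adjusted p above the threshold does not show that the combination and radiation act alike: the SE of these differences is that of the changes from control.

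Against 1D11 alone 10 genes passed, 0.0785% of those tested, 4 higher (0.0314%) and 6 lower (0.0471%), and 8 of them were among the 299. Aplnr led with -1.66 ± 0.12 (adjusted p = 0.000322), followed by Osr2 with -1.72 ± 0.20 (0.0159) and Srgap3, which encodes a GTPase-activating protein, with 0.90 ± 0.11 (0.0251). Adam8, a leukocyte metalloprotease, was higher by 0.67 ± 0.09 (0.0364), Abcc1 by 0.59 ± 0.09 (0.0408) and Cystm1 by 0.44 ± 0.06 (0.043). Ntn1 (-0.52 ± 0.07) and Prrg2 (-0.65 ± 0.09) were lower. The other 2, outside the rule for named genes, were Trio, a guanine nucleotide exchange factor (-0.56 ± 0.08, adjusted p = 0.0443), and Mcpt4, a mast cell protease. Mcpt4 read 8.19, 8.12 and 8.54 with 1D11 alone and 6.18, 6.93 and 6.98 with both, against 7.23, 6.51 and 6.50 in the controls, a difference of -1.59 ± 0.24 from 1D11 (adjusted p = 0.0499). The mast cell scores were 0.79, 0.53 and 0.58 with 1D11 and -0.54, -0.07 and -0.14 with both. The number called in this contrast was 227, 22 and 8 without control replicates 1, 2 and 3, and 3, 14 and 1 without combination replicates 1, 2 and 3. Aplnr was the gene left in the last case.

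The interaction asks whether the combined change differs from the sum of both single changes on the log2 scale. No gene passed in limma, with 952 at an unadjusted p under 0.05 and a smallest adjusted p of 0.265. Stat4 had the smallest p among the genes called against control: its combined change of 0.39 stood beside 0.75 for radiation and 0.39 for 1D11, an interaction of -0.75 ± 0.12 (unadjusted p = 4.65e-05). Ms4a4b (-2.01 ± 0.41, unadjusted p = 0.000452), Aplnr (-0.79 ± 0.17, 0.000705), the lymphocyte gene Slfn1 (-0.75 ± 0.17, 0.00093), Edil3, an endothelial matrix ligand (0.67 ± 0.18, 0.00326), and Cxcl9 (-2.10 ± 0.66, 0.0084) followed without passing adjustment. For Cxcl9, Stat4 and Slfn1 the combined change was no larger than the bigger of the single changes, and for Aplnr it exceeded both.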

How the data were processed

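The deposited file holds 1 intensity per probe set and tumor on a linear scale, already normalized by the authors by a method that is not given in the sources used here. Array medians lay between 62.3 and 66.1, and log2 intensities were used without a further step. Each gene was represented by its brightest probe set. The dimmest 30 percent of genes, below 5.37 on the log2 scale, were left out, and 12735 of 18193 genes were tested. limma 3.58.1 in R 4.3.3 fitted 1 mean per group over all 12 arrays (lmFit, eBayes, 8 residual degrees of freedom), with two-sided tests and Benjamini-Hochberg adjustment over all genes. The number of arrays limits the precision. In simulated data of this comparison, with 200 of 12735 genes changed, the fit recovered 73.0% of 1.5-fold and 93.5% of 2-fold changes. False calls numbered 12 and 7. Genes were drawn independently there, each with the same spread on every array. The real arrays were unequal, with array weights from 0.297 to 3.27, so these percentages need not hold for the tumors.

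Named were the 12 largest called rises and falls, the smallest p-values of each contrast, up to 6 members of each list described with all its called members, and the TGF-beta genes, Cdkn1a and Mdm2. Another gene that this rule names is not reported here. Members and lists were chosen with earlier results of these data known. Lists were counted, not tested as sets. Their counts of called members stand beside 1.71% of all genes called higher and 0.636% called lower. The labels do not say whether replicate numbers pair the tumors, and the main fit used no pairing. With group means taken out, same-numbered arrays had correlations across genes between -0.308 and 0.272, above 0.1 in 3 of 18 pairs. With 3 arrays per group these values cannot settle whether same-numbered tumors shared a batch.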

Additional observations from a re-analysis of the deposited data

How the results depend on the processing

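With 3 tumors per group the number of calls depended on the setting. All 299 genes called against control kept their sign in every setting that tested them. Because they were picked for large changes in these same arrays, a turned sign was unlikely from the start. Settings that leave the group means as they are cannot turn a sign. The signs that turned were those of 4 named genes that had not passed against control. Without single tumors Tgfbr2 ran from -0.020 to 0.18, Epcam from -0.082 to 0.16 and Mcpt4 from -0.19 to 0.21. Epcam was -0.14 and Trio 0.02 with the mean of probe sets, Epcam -0.057 with quantile normalization, and Mcpt4 0.17 with array weights and 0.20 without both arrays of highest muscle score. The 299 calls became 1 with the 6 tumors alone, 178 with no filter and 923 with array weights, which gave control replicate 1 a weight of 0.297, and 17 to 221 without single tumors. The 10 calls against 1D11 became 35 with the mean of probe sets, 57 with the dimmest 50 percent left out, 63 with a trended robust variance, 1491 with array weights, 419 without both arrays of highest muscle score, and 1 to 227 without single tumors. Against radiation, where none was called, 6 were with array weights, 1 (P2ry10) without both muscle-rich arrays and 0 to 1 (Frzb) without single tumors. For the interaction these were 122, 20 and 0 to 21. With the replicate number as a block, 85 genes were called against control, 84 of them among the 299, and 1 (Aplnr) against 1D11, and none in the other contrasts. The causes were not tested, except that fewer tumors leave fewer degrees of freedom.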
